A study of Capra hircus with 29 samples.

Results

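Oocytes of small follicles were compared between goats of high and low fertility. There were 4 samples of the high fertility group (HSO, replicates 1, 3, 4 and 5) and 5 of the low fertility group (LSO, replicates 1 to 5), out of 29 oocyte samples of the series. All were from the Ji'ning grey goat, a Chinese breed known for its fecundity, and no animal was treated. The labels place does with more than 3 kids per birth in the high group and does with less than 2 in the low group, while the study's methods word both limits so that does at the limits themselves are included. The study's methods describe oocytes pooled by follicle size and then divided into samples of a few oocytes, with the pooling worded for the high group. Samples of a group are therefore read as portions of 1 pool, and 1 sample is not 1 goat. Fertility group and pool cannot be told apart. The goats behind a sample, their age and their season are not given, and samples of a group differ by the oocytes drawn and by preparation. Expression was given as FPKM, fragments of a gene scaled for transcript length and for the number of mapped fragments, which allows levels of different genes to be set side by side. A gene was kept when 4 or more of the 9 samples exceeded 0.5 FPKM, which left 8376 of 21343 genes. A further 5291 genes were listed at 0 in all 9 samples and 7676 were detected but fell under this limit. Levels were tested on the log2(FPKM + 1) scale, which understates the change of low genes. Since the samples are not tied to goats, p-values measure the spread between these samples and not that between goats.

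The small follicle is the stage in which the oocyte grows, stores maternal transcripts and builds its zona pellucida while it is held in meiotic arrest. The oocyte steers the surrounding granulosa cells through secreted factors of the TGF-β family, GDF9 and BMP15, and variants of these factors and of their receptors change the ovulation rate in small ruminants. Much of the RNA made during growth is stored for use after meiosis resumes, when the oocyte transcribes little. In pooled samples, less RNA per oocyte and fewer oocytes that hold a transcript cannot be told apart.

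The samples were oocytes by their markers. Of 14 oocyte markers 13 were in the table and each of them was above 0.5 FPKM in at least 1 sample. NLRP5 was above it in 2 samples, NOBOX in 4 and the others in all 9. The summed level of these markers ran from 2894 to 12250 FPKM in HSO and from 2690 to 8256 FPKM in LSO. The granulosa and cumulus list summed to 5.03 to 12.6 FPKM in HSO and 4.09 to 34.1 FPKM in LSO, with AMH and HSD17B1 listed at 0 in every sample. The highest of these sums was LSO-5, through TNFAIP6 at 18.2 FPKM and INHBA at 4.84 FPKM. LSO-1 stood apart from the other 8 samples. It had the lowest FPKM sum, 350806 against 389102 to 449354, and its Spearman correlation with the others had a median of 0.792, the lowest of the 9. The median Spearman correlation was 0.888 over the 6 pairs within HSO, 0.836 over the 10 pairs within LSO and 0.872 over the 20 pairs between the groups. The samples were about as alike across groups as within them. The median SD of a gene on the log2(FPKM + 1) scale was 0.421 in HSO and 0.559 in LSO, or 0.486 in LSO without LSO-1.

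There were 77 genes higher in HSO and 65 genes higher in LSO, that is 0.919% and 0.776% of the 8376 genes, by limma's moderated test when a log2 fold change beyond 1 and p under 0.05 before adjustment were both required. Genes past both limits are referred to as called. After Benjamini-Hochberg adjustment 1 gene passed, 0.0119% of the genes. With no limit on the fold change, p was under 0.05 for 171 genes in the direction of HSO (2.04%) and for 198 in the direction of LSO (2.36%). The values of the groups did not overlap in 63 genes higher in HSO (0.752%) and 109 genes higher in LSO (1.3%). The non-overlapping differences were mostly small, with a median log2 fold change of 0.778 toward HSO and -0.609 toward LSO. Among the called genes, the groups did not overlap in 21 of the 77 and in 6 of the 65. The median SE of a log2 fold change was 0.357 and the median 95% interval reached 0.786 to either side, so for a typical gene a difference below that size was not detectable here.

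**Figure D1:**
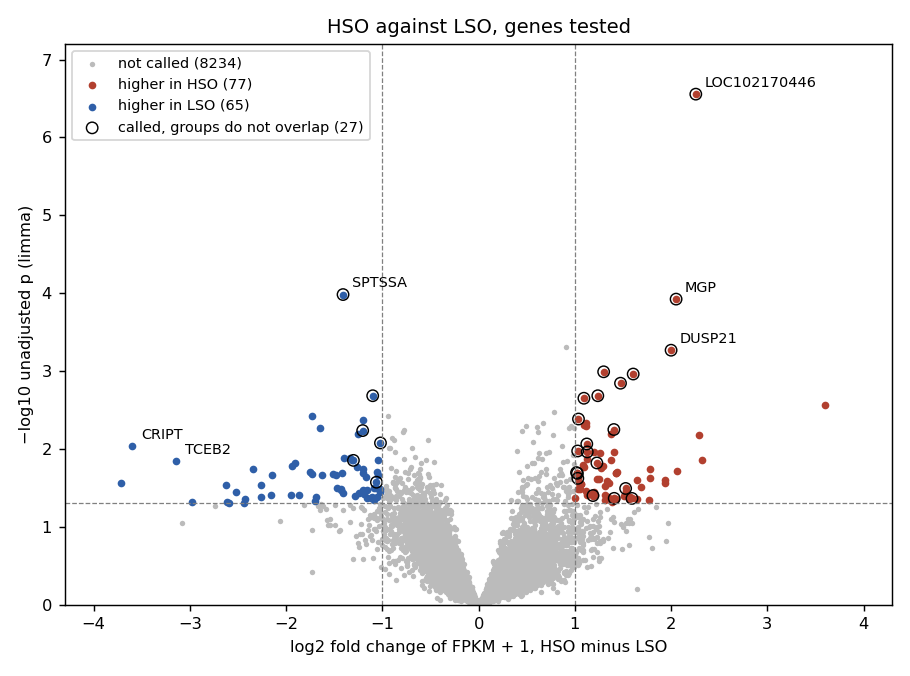
Log2 fold change of FPKM + 1 (HSO minus LSO, horizontal) against -log10 of the unadjusted limma p (vertical) for the 8376 genes tested. Dashed lines mark the limits of 0.05 on p and of 1 on the log2 fold change, coloured points are the 77 genes higher in HSO and the 65 higher in LSO, and rings mark called genes whose groups did not overlap. LOC102170446 lies alone at the top, and most genes far to the left carry no ring.

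These counts moved with single samples. The number higher in HSO was 31 without LSO-1, 37 without HSO-1 and 50 without HSO-5, and it was 207 without HSO-3 and 194 without LSO-5. The number higher in LSO was 17 without LSO-1, 29 without HSO-1 and 40 without LSO-3, and it was 148 without LSO-2 and 150 without LSO-5. Without LSO-1, 27 of the 77 and 16 of the 65 genes were still called. LSO-1 held the lowest value of the 9 samples in 58 of the 77 genes higher in HSO (75.3%) against 15.8% of all tested genes, and the highest value in 44 of the 65 genes higher in LSO (67.7%) against 27.4% of all tested genes. The genes were chosen by direction, which favours an LSO sample at the extreme, so the shares over all genes are no fair background. Within the 65 genes the highest sample was LSO-3 in 11, LSO-4 in 9 and LSO-2 or LSO-5 in 1. With median-of-ratios scaling of the samples the split was 110 genes higher in HSO to 54 higher in LSO.

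The gene that passed the adjusted threshold was LOC102170446 (ENSCHIG00000020830), which the annotation describes as tripartite motif-containing protein 34. Proteins of this family are E3 ubiquitin ligases, several of which restrict retroviruses in the cytoplasm. Its level was 2.64, 5.70, 3.46 and 4.28 FPKM in HSO-1, 3, 4 and 5. It was listed at 0 in LSO-1 and LSO-2 and stood at 0.0415, 0.0244 and 0.0562 FPKM in LSO-3, 4 and 5. Every HSO sample lay far above every LSO sample, and no LSO sample reached 0.5 FPKM. The log2 fold change was 2.26 ± 0.204 (SE), with a 95% interval from 1.81 to 2.71 and a limma adjusted p of 0.00233. Leaving out each sample in turn while testing the same genes gave 2.11 to 2.40 with adjusted p from 0.00264 to 0.0209, below 0.05 in 9 of 9 fits. The gene was picked from these same 9 samples and met the filter only through HSO, so these fits are no separate test. With a filter that is renewed for each subset the gene is not tested without any 1 of the HSO samples, since fewer than 4 samples then exceed 0.5 FPKM. The adjusted p was 0.0537 over 9692 genes in 1 fit of the means of all 6 oocyte groups, 0.075 with a replicate block and 0.771 by an exact two-sided Wilcoxon test, whose smallest unadjusted p of 0.0159 is the least that 4 against 5 samples allow. Related genes did not share the pattern. TRIM6, which lies 2 genes away in the RefSeq gene order of assembly ARS1.2, was at 0.912 to 2.06 FPKM in HSO and 1.51 to 2.66 FPKM in LSO, a log2 fold change of -0.29 (adjusted p = 0.88), with overlapping groups. The 3 genes described as tripartite motif-containing protein 5 were listed at 0 in all 9 samples.

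Among the other genes higher in HSO, MGP encodes matrix Gla protein, an extracellular inhibitor of calcification made by stromal and vascular cells and cartilage. MGP was at 36.9, 19.6, 25.6 and 49.1 FPKM in HSO-1, 3, 4 and 5. In LSO-1 to 5 it was at 5.49, 4.93, 7.39, 6.91 and 9.59 FPKM. The lowest HSO sample was above the highest LSO sample, with means of 32.8 ± 13.0 (SD, n = 4) and 6.86 ± 1.83 FPKM (SD, n = 5). The log2 fold change was 2.05 ± 0.353 (SE; unadjusted p = 0.000119, adjusted p = 0.333), and it stayed between 1.84 and 2.26 when each sample was left out in turn. MGP was on the list of theca and stroma markers, so that list was read without it. Without MGP it summed to 29.2 to 44.4 FPKM in HSO and 7.32 to 41.7 FPKM in LSO, and STAR, at 4.32 to 28.1 FPKM, and DCN made up most of it. The collagen COL1A1 was listed at 0 in 8 samples and at 0.0391 FPKM in LSO-1, and INSL3, the theca hormone, was listed at 0. The collagen COL1A2 of the same list was above 0.5 FPKM in all 9 samples. It ran from 1.117 to 2.999 FPKM in HSO and from 0.9262 to 2.089 FPKM in LSO, and overlapped. Its log2 fold change was 0.188 (adjusted p = 0.912). LUM, also on the list, was at 0.2635 to 1.738 FPKM in HSO and 0.02665 to 0.7366 FPKM in LSO. DCN, a stromal proteoglycan, had a log2 fold change of 0.772 (adjusted p = 0.88): it ran from 3.70 to 15.5 FPKM in HSO samples and from 1.95 to 10.7 FPKM in LSO samples, and overlapped. With MGP the sums were 50.4 to 93.5 FPKM in HSO and 12.8 to 51.3 FPKM in LSO, and the part of stromal RNA in the MGP difference was not tested.

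DUSP21, a dual-specificity phosphatase, was at 8.03, 9.99, 9.66 and 3.59 FPKM in HSO-1, 3, 4 and 5. In LSO-1 to 5 it was at 0.693, 0, 2.39, 1.27 and 2.02 FPKM. The groups did not overlap, and the log2 fold change was 2.0 ± 0.415 (SE; unadjusted p = 0.000539, adjusted p = 0.88). SLC35D2, a nucleotide sugar transporter of the Golgi, ranged from 1.80 to 7.39 FPKM in HSO and from 0.0301 to 1.43 FPKM in LSO, a log2 fold change of 1.61. CTSO, a lysosomal cysteine protease, was at 3.32, 0.898, 0.816 and 3.56 FPKM in HSO and at 0.0869 to 0.294 FPKM in LSO, so that each HSO sample and no LSO sample was above 0.5 FPKM. Its HSO samples formed a higher pair, HSO-1 and HSO-5, and a lower pair. ALDH1A2, which makes retinoic acid, was at 3.05 to 5.58 FPKM in HSO and 0.419 to 2.59 FPKM in LSO, a log2 fold change of 1.24 ± 0.309 (SE). PNPLA4, a lipase that acts on retinyl esters and triglycerides, was at 3.87 to 6.80 FPKM in HSO and 0.475 to 3.56 FPKM in LSO. C12orf54, whose function is not known, was at 5.09 to 7.74 FPKM in HSO and 0.17 to 2.43 FPKM in LSO. With the same genes tested, these genes and LOC102170446, MGP and DUSP21 kept both limits in each of the 9 fits that left out 1 sample. The genes were picked from these same samples, so these fits are no separate test. Like LOC102170446, CTSO is not tested without any 1 of the HSO samples when the filter is renewed. Apart from LOC102170446 none of them passed the adjusted threshold in the test of all 9 samples.

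**Figure D2:**
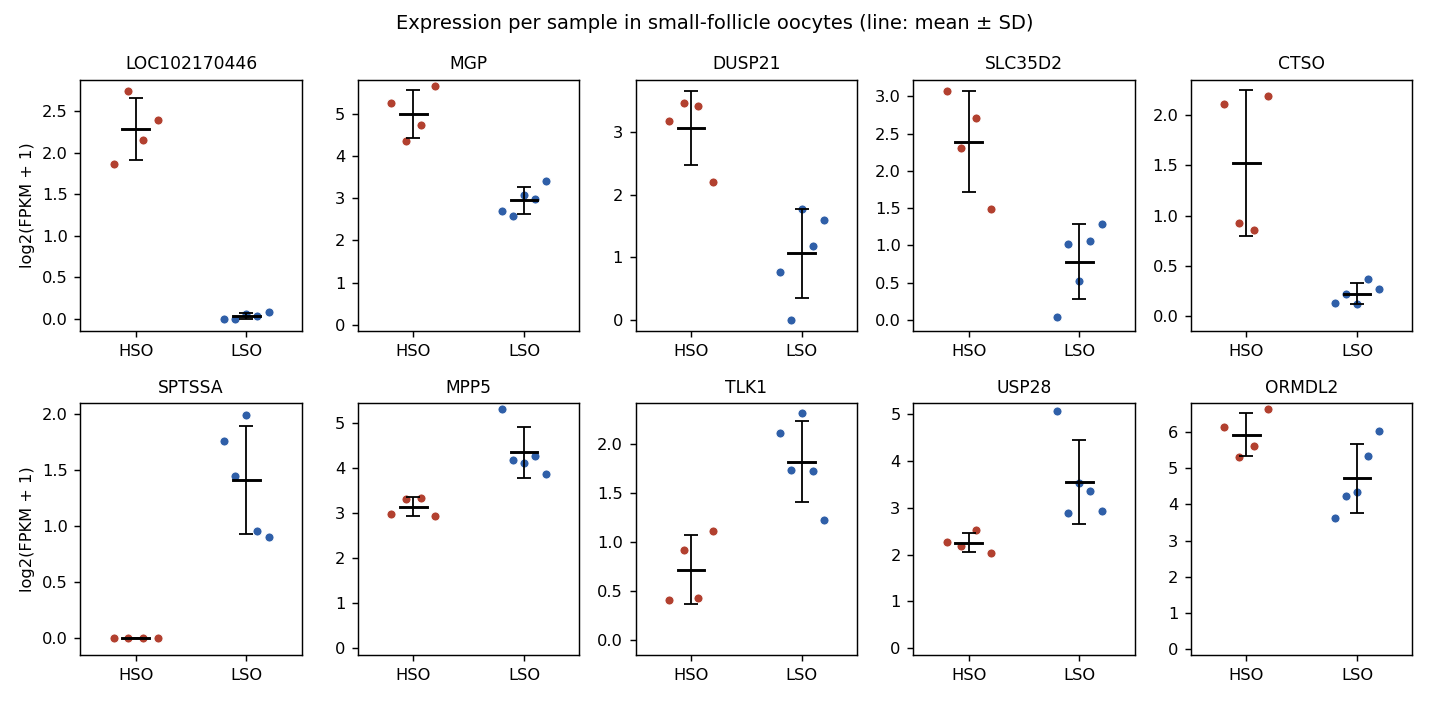
Log2(FPKM + 1) of 10 genes in the 4 HSO samples (red) and 5 LSO samples (blue), with the mean and SD of each group in black. The HSO points of LOC102170446, MGP, DUSP21, SLC35D2 and CTSO lie above all LSO points, those of SPTSSA, MPP5, TLK1 and USP28 lie below them, and ORMDL2 overlaps.

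Another 5 genes higher in HSO without overlap lost their call when some single samples were left out. APOM, the plasma carrier of sphingosine-1-phosphate, was at 27.6 to 34.8 FPKM in HSO, and in LSO-1 to 5 it was at 1.32, 20.9, 8.11, 11.2 and 25.2 FPKM. Its log2 fold change of 1.53 became 0.973 without LSO-1, and its call was lost without any 1 of the HSO samples, LSO-1 or LSO-3. RPGRIP1, a protein of the connecting cilium, was at 37.9 to 48.8 FPKM in HSO and at 2.33 FPKM in LSO-1 against 16.1 to 32.4 FPKM in the other LSO samples. Its log2 fold change of 1.41 was 0.827 without LSO-1, and its call was lost without any 1 of the HSO samples, LSO-1, LSO-3 or LSO-4. ANAPC13, a subunit of the anaphase-promoting complex, was at 116 to 158 FPKM in HSO and 16.1 to 110.0 FPKM in LSO, with LSO-1 the lowest. Its log2 fold change of 1.19 was 0.731 without LSO-1, and its call was lost in the same 6 fits as that of APOM. IL18, an inflammatory cytokine, was at 7.11 to 10.4 FPKM in HSO and 1.12 to 6.17 FPKM in LSO, a log2 fold change of 1.13 that was 0.85 without LSO-1. HIST1H2BK, a replication-type histone H2B, was at 20.1 FPKM in HSO-1 and 9.29 to 10.8 FPKM in the other HSO samples, against 2.06 to 9.07 FPKM in LSO. Its call was lost without HSO-1, where the log2 fold change was 0.989.

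In the direction of LSO the gene with the smallest p was SPTSSA, the small subunit that activates serine palmitoyltransferase, the enzyme of the first step of sphingolipid synthesis. It was listed at 0 in every HSO sample. In LSO-1 to 5 it was at 2.37, 1.73, 2.97, 0.936 and 0.862 FPKM. Of the 8376 genes, SPTSSA was the only 1 at 0 throughout HSO and above 0 throughout LSO. The fitted log2 fold change on the log2(FPKM + 1) scale was -1.41 ± 0.238 (SE; unadjusted p = 0.000104, adjusted p = 0.333). It stayed between -1.54 and -1.26 when each sample was left out. The gene was picked from these same samples and met the filter only through LSO, so this range is no separate test. With a pseudocount of 0.1 the log2 fold change was -4.08 and the adjusted p 0.0147. A smaller pseudocount widens the difference of a gene listed at 0 throughout HSO. The adjusted p was 0.771 by the exact Wilcoxon test, 0.497 with the replicate block and 0.924 in the fit of all oocyte group means. Both neighbours in the RefSeq gene order, EGLN3 and EAPP, had overlapping groups, with log2 fold changes of 0.203 (adjusted p = 0.912) and 0.0351 (adjusted p = 0.991).

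The other genes of sphingolipid synthesis did not move as a group. Of 16 tested genes of the list, SPTSSA was higher in LSO and ORMDL2 was higher in HSO, and the other 14 did not pass the limits. The called share was 12.5% of the list, beside 1.7% of all tested genes. The median log2 fold change of the list was 0.078, beside -0.00609 over all genes tested. ORMDL2, an inhibitor of serine palmitoyltransferase, was at 69.5, 38.2, 47.5 and 97.7 FPKM in HSO-1, 3, 4 and 5. In LSO-1 to 5 it was at 11.3, 17.8, 19.1, 39.5 and 63.9 FPKM. The groups overlapped, since LSO-4 and LSO-5 reached into the HSO range, and the log2 fold change was 1.21 ± 0.515 (SE; unadjusted p = 0.0391, adjusted p = 0.88). Its call was lost without HSO-1, 4 or 5 or LSO-1, 2 or 3. SPTLC2, a catalytic subunit of the enzyme, was at 0.333 to 0.366 FPKM in HSO and 0.469 to 4.23 FPKM in LSO. These groups did not overlap, but the log2 fold change was -0.57 (adjusted p = 0.88) and the highest value was that of LSO-1.

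The genes MPP5, TLK1, USP28 and LHX1 were also higher in LSO without overlap. MPP5, the Crumbs complex scaffold also called PALS1, was at 6.62 to 9.07 FPKM in HSO. In LSO-1 to 5 it was at 38.6, 16.9, 16.1, 18.1 and 13.6 FPKM, with LSO-1 well above the rest. Its log2 fold change was -1.20 ± 0.353 (SE; adjusted p = 0.88), and -0.96 without LSO-1. TLK1, a kinase of chromatin assembly, was at 0.329 to 1.17 FPKM in HSO and 1.34 to 3.96 FPKM in LSO, a log2 fold change of -1.10 ± 0.274 (SE); 2 genes of the table carry this symbol, so its level is uncertain. USP28, a deubiquitinating enzyme of the DNA damage response, was at 3.11 to 4.76 FPKM in HSO, at 32.9 FPKM in LSO-1 and at 6.36 to 10.49 FPKM in the other LSO samples. Its log2 fold change was -1.30, and -0.92 without LSO-1. LHX1, a LIM homeobox transcription factor, was at 0.276 to 0.744 FPKM in HSO, at 7.94 FPKM in LSO-1 and at 0.969 to 2.93 FPKM in the other LSO samples, with a log2 fold change of -1.06 that was -0.69 without LSO-1. The call of TLK1 was lost without HSO-1 or LSO-3, and that of LHX1 without HSO-1, HSO-5, LSO-1 or LSO-3.

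A few genes lay on either side of 0.5 FPKM in the groups. There were 5 genes above 0.5 FPKM in every HSO and in no LSO sample, namely LOC102170446, CTSO, ACTN2, HK2 and IFI44L. There were 9 with the reverse pattern, namely SPTSSA, DYDC2, MED16, SLC44A1, NAV3, FAM129A, ZADH2, MKRN2 and CEP68. Of these genes, LOC102170446, CTSO and SPTSSA passed both limits of the test. Apart from SPTSSA, each of them was above 0 in some samples of both groups, and in several the groups were separated by little. SLC44A1, a choline transporter, was at 0.486 FPKM in HSO-4 and 0.508 FPKM in LSO-3. HK2, the hexokinase of insulin-sensitive tissues, was at 0.537 to 0.665 FPKM in HSO and 0.0556 to 0.332 FPKM in LSO, with a log2 fold change of 0.396. Genes just inside the filter were low throughout: the 475 genes above 0.5 FPKM in exactly 4 samples had a median of 0.425 FPKM, and the 529 genes in exactly 3 samples, which were left out, had 0.314 FPKM.

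In most of the genes higher in LSO the same 3 LSO samples were high, with or without the other two. In 61 of the 65, LSO-1, LSO-3 and LSO-4 were each above every HSO sample. The genes were chosen as higher in LSO, which favours such a count, and its share over all tested genes was not counted. LSO-2 was within or below the HSO range in 37 of these 61, LSO-5 in 39, and both were in 21. In the other 40 genes LSO-2, LSO-5 or both were above every HSO sample as well. The 21 genes were 32.3% of the 65, and over all tested genes the same pattern was seen in 254, or 3.03%. The choice of genes higher in LSO favours this pattern too, so the gap between these shares is no separate result. Of the 21 genes 13 share their symbol with other genes, RPS15A, RPS23, RPS10, RPL19, RPL7, ATP5G2, SNRNP27 and NACA among them. RPS23, a protein of the small ribosomal subunit, was at 41.0, 25.8 and 19.4 FPKM in LSO-1, 3 and 4. It was at 0.247 and 0.221 FPKM in LSO-2 and LSO-5 and at 0 to 0.653 FPKM in HSO. RPL19, of the large subunit, was at 65.7, 22.7 and 51.2 FPKM in LSO-1, 3 and 4 and at 0.128 to 1.39 FPKM in the other 6 samples. RPS6 was at 146.8, 60.3 and 96.8 FPKM in LSO-1, 3 and 4 and at 2.74 to 7.67 FPKM in the others. The symbol RPS23 stands for 9 genes of the table, RPL19 for 6 and RPS6 for 11, so these are single copies whose reads may be shared with the others, and their levels are uncertain.

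In all, 7 of 136 tested genes of cytosolic ribosomal proteins were higher in LSO (RPS15A, RPS23, RPS6, RPS10, RPS3A, RPL19 and RPL7) and 0 passed the limits in the direction of HSO, at p under 0.05 alone as well. The 7 genes were 5.15% of the list, beside 0.776% of all tested genes. High values of such copies were not particular to LSO, as the other stages given below show. Of these 136 genes, 116 share a symbol with another gene. The median of the list was -0.183 beside -0.00609 over all genes. It had 93 negative and 43 positive values, beside 4259 negative and 4117 positive over all genes. Of 77 nuclear genes for respiratory chain and ATP synthase subunits, ATP5G2, NDUFA3 and NDUFA4 passed the limits in the direction of LSO, which is 3.9% of the list, and the median was -0.0723. NDUFA3 differed from the rest in that LSO-2 was its highest sample, with 4.22 FPKM, while it was listed at 0 in 3 HSO samples and at 1.11 FPKM in HSO-5. With the same genes tested, the calls of RPL19, RPL7, RPS6 and ATP5G2 were lost when any 1 of the HSO samples or LSO-1, 3 or 4 was left out, and were kept in 2 of 9 fits. RPS15A and RPS23 lost theirs without HSO-1, HSO-5, LSO-1, LSO-3 or LSO-4, RPS10 without HSO-3, HSO-4, LSO-1, LSO-3 or LSO-4, RPS3A without LSO-1 or LSO-4, NDUFA4 without HSO-1 and NDUFA3 without LSO-2.

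The same 3 samples were high in HSD17B2, an enzyme that inactivates estradiol and testosterone. HSD17B2 was at 18.5, 7.44 and 17.99 FPKM in LSO-1, 3 and 4 and at 0.0489 and 0.0754 FPKM in LSO-2 and LSO-5. HSO samples were at 0.0588 to 0.122 FPKM. With 3 samples above 0.5 FPKM, HSD17B2 was not among the genes tested between HSO and LSO. In the other stages it was at 12.7 to 27.4 FPKM in 4 of 5 HMO samples and at 41.7 FPKM in 1 LLO sample. The summed theca and stroma markers were lowest in these 3 samples, at 12.8, 30.5 and 28.7 FPKM in LSO-1, 3 and 4 against 35.8 to 93.5 FPKM in the other 6 samples. Without MGP they were 7.32, 23.1 and 21.7 FPKM against 29.2 to 44.4 FPKM. The granulosa sums of 4.17, 7.37 and 12.2 FPKM were within the range of the other 6, but GJA1, a gap junction protein of this list, was higher in the 3 samples, at 0.942, 1.83 and 4.23 FPKM against 0.258 to 0.611 FPKM. The leukocyte sums were 32.2, 78.1 and 22.6 FPKM against 53.0 to 216 FPKM in the others. CD52, at 18.3 to 211 FPKM over the 9 samples, made up most of them, and PTPRC, CD3E and CD74 exceeded 0.5 FPKM in no sample. Of single markers, CORO1A and PECAM1 were also above the other 6 samples in all 3, and CYP11A1 and KDR below them. These gaps were small or near the floor. CORO1A was at 2.28 FPKM in LSO-3 against 2.27 FPKM in HSO-4. PECAM1 was at 0.0387 FPKM in LSO-4 against 0.0339 FPKM in HSO-5. CYP11A1 exceeded 0.5 FPKM in no sample, and KDR was at most 0.691 FPKM. The part of other cells in this pattern was not tested.

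**Figure D3:**
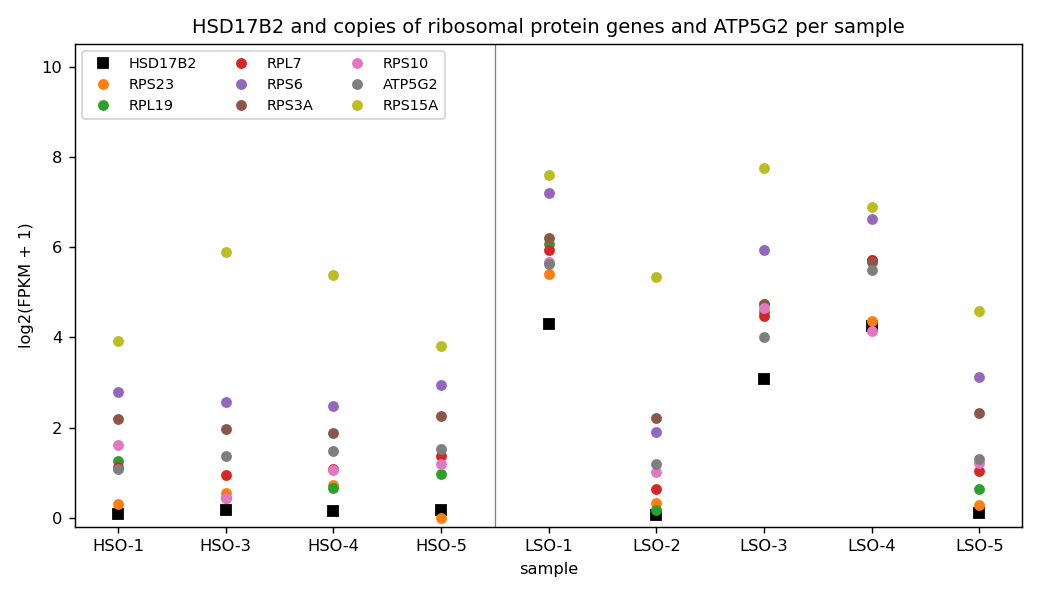
Log2(FPKM + 1) of HSD17B2 (black squares) and of copies of 7 ribosomal protein genes and ATP5G2 (circles) in each of the 9 samples. LSO-1, LSO-3 and LSO-4 are high in all 9 genes, while LSO-2 and LSO-5 lie with the HSO samples.

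The growth and signalling genes of the oocyte held 0 called genes, where 1.7% of all tested genes were called in either direction. At that share, 0 in lists of this size is no result about them. GDF9 was at 387, 160, 221 and 974 FPKM in HSO and at 268, 86.9, 189, 696 and 525 FPKM in LSO, with a log2 fold change of 0.298 ± 0.668 (SE; adjusted p = 0.944). BMP15 was at 98.1 to 201 FPKM in HSO and 96.4 to 216 FPKM in LSO, with a log2 fold change of -0.23 ± 0.356 (SE; adjusted p = 0.922). The groups overlapped in both genes, and for GDF9 the spread within a group was wider than that of most genes. Of the 6 tested growth factors and of the 16 tested TGF-β receptors, SMADs and targets 0 passed the limits, at p under 0.05 as well. BMPR1B, the receptor in which a variant raises the ovulation rate of sheep, was at 0.795 to 2.41 FPKM in HSO and 0.505 to 1.77 FPKM in LSO, a log2 fold change of 0.262 (adjusted p = 0.889). Of 14 genes of the Notch pathway 0 passed both limits and 1 had a p under 0.05. This was HEY2, a Notch target, which was at 0.68 to 1.36 FPKM in HSO and 1.23 to 3.43 FPKM in LSO, a log2 fold change of -0.58 (adjusted p = 0.88). The ligand JAG1 and the target HES1 had log2 fold changes of -0.52 and -0.74 (adjusted p = 0.88 for both).

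In the next 4 lists 0 genes passed the limits by limma, and 0 had a p under 0.05. Over all tested genes 1.7% passed the limits, so 0 calls in lists of this size is no result about them. At p under 0.05 the shares over all tested genes were 2.04% toward HSO and 2.36% toward LSO. Among 13 genes of maternal effect and the subcortical complex, 11 had a negative log2 fold change and the median was -0.415. ZAR1L, which binds maternal mRNA, was the lowest of them, with 40.8 to 145 FPKM in HSO and 75.7 to 398 FPKM in LSO, a log2 fold change of -1.06 ± 0.549 (SE; adjusted p = 0.88). OOEP and NPM2 had log2 fold changes of -0.45 and 0.232. Among 11 oocyte transcription factors 9 were negative, with a median of -0.311. FIGLA, which drives the zona genes, was at 4.73 to 7.86 FPKM in HSO and 5.10 to 47.1 FPKM in LSO, a log2 fold change of -0.86 (adjusted p = 0.88), and its highest sample was LSO-1. ZP2, ZP3 and ZP4, the zona pellucida proteins, had log2 fold changes of 0.0127, -0.17 and 0.0143 and adjusted p from 0.966 to 1. The 34 genes of mRNA deadenylation and storage had a median of -0.29, with 24 negative values, and the 31 kinases and cyclins of meiotic maturation had a median of 0.0436.

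The list with the highest median was that of the 13 mitochondrially encoded transcripts, at 0.629 with 12 positive values and 0 past the limits by limma or at p under 0.05. Their spread was wide, with a median SE of 1.09. Their summed level was 5919 FPKM in HSO-3, 4209 FPKM in LSO-3 and 121.8 FPKM in LSO-1, and 375.8 to 2510 FPKM in the other 6 samples, so that both groups held high and low samples. ND2, a subunit of complex I, had the largest log2 fold change of the list, 1.23 ± 0.759 (SE; adjusted p = 0.88). In fatty acid handling FABP3, which carries fatty acids in the cytoplasm, was the only 1 of 21 genes past the limits. FABP3 was at 1148, 528, 761 and 1122 FPKM in HSO-1, 3, 4 and 5. In LSO-1 to 5 it was at 243, 358, 247, 713 and 704 FPKM, overlapping HSO-3. Its log2 fold change was 1.07 ± 0.423 (SE; adjusted p = 0.88), and the call was lost without HSO-1, HSO-5, LSO-1, LSO-2 or LSO-3. Of 34 ubiquitin-specific proteases USP13 was higher in HSO and USP28 in LSO, and the median was -0.14. USP13 was at 13.3 to 20.7 FPKM in HSO, at 20.9 FPKM in LSO-5 and at 0.428 to 6.35 FPKM in the other LSO samples; its log2 fold change of 1.65 was not called without HSO-4 or HSO-5. MPP5 was the only 1 of 14 polarity scaffolds past the limits (median -0.179), DUSP21 the only 1 of 14 dual-specificity phosphatases (median 0.204), and MGP the only 1 of 23 matrix and glycosaminoglycan genes (median 0.0666). USP28 was also the only 1 of 20 DNA damage checkpoint genes (median -0.00737). Over all tested genes 1.7% were called, so single calls or none in lists of this size are no result about the lists.

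**Figure D4:**
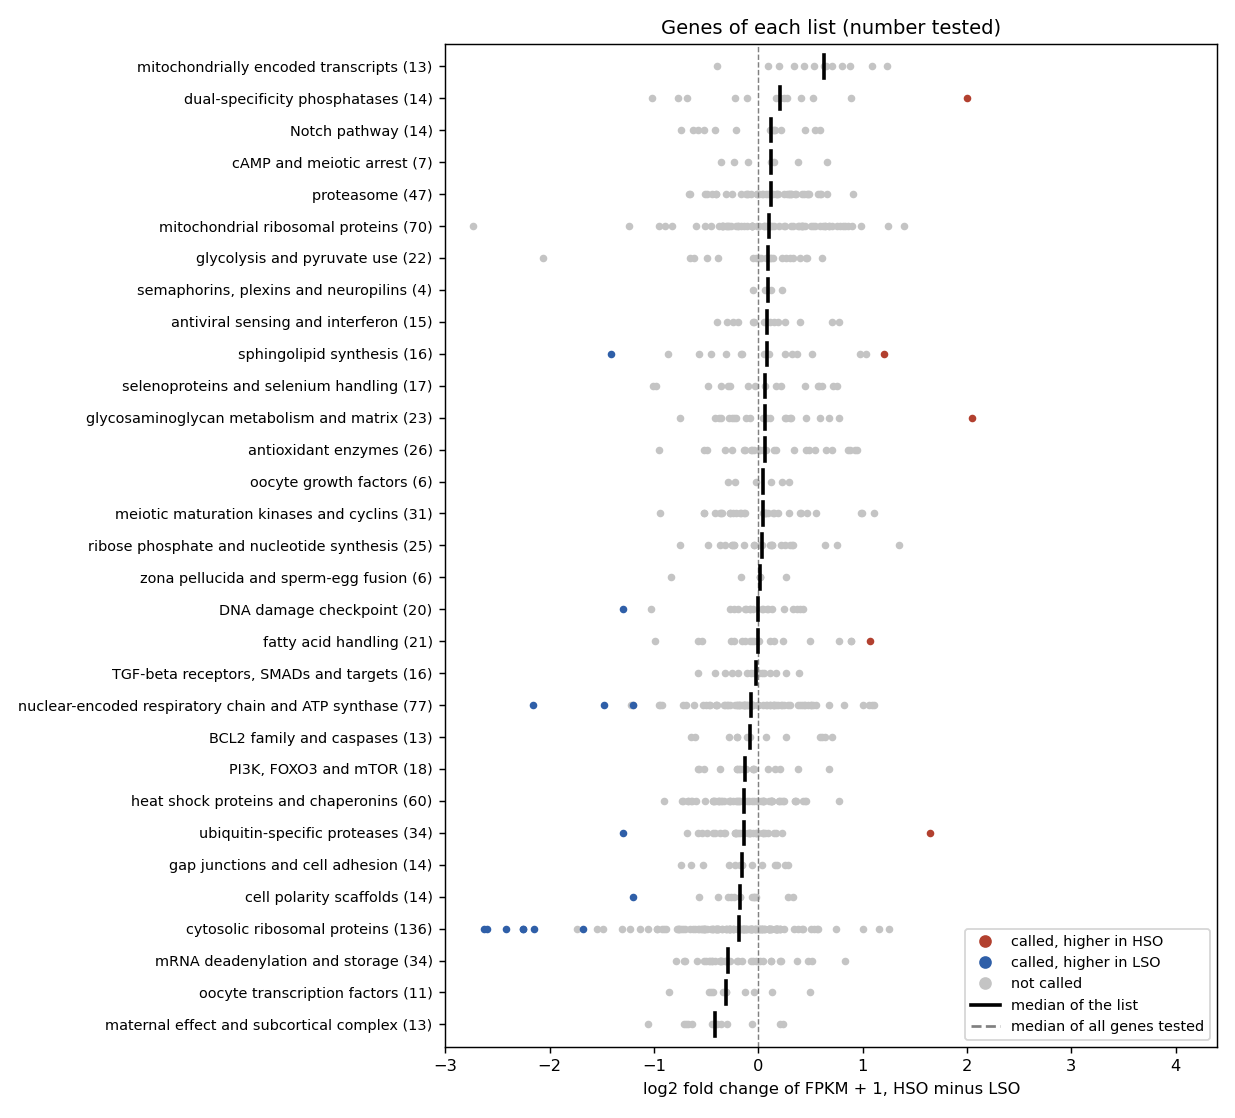
Log2 fold change of FPKM + 1 (HSO minus LSO, horizontal) of each tested gene of the 31 lists, with the number tested in brackets. Black bars are list medians, which run from -0.415 to 0.629, the dashed line is the median of all genes, and red and blue points are members past both limits toward HSO and toward LSO. Most lists hold no coloured point.

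The remaining lists held 0 genes past both limits by limma, beside 1.7% of all tested genes. At p under 0.05 alone, antioxidant enzymes had 2 genes in each direction, selenoproteins, glycolysis and mitochondrial ribosomal proteins 1 gene each toward HSO, heat shock proteins 1 toward LSO, and the other lists 0. Their medians lay between -0.16 (gap junctions and cell adhesion) and 0.123 (cAMP and meiotic arrest). They also covered the proteasome (47 genes, 0.12), mitochondrial ribosomal proteins (70 genes, 0.106), heat shock proteins and chaperonins (60 genes, -0.139), glycolysis and pyruvate use (22 genes, 0.0968), antioxidant enzymes (26 genes, 0.0614), antiviral sensing and interferon (15 genes, 0.0803), selenoproteins (17 genes, 0.0671), nucleotide synthesis (25 genes, 0.0348), zona pellucida and sperm-egg fusion (6 genes, 0.0135), the BCL2 family and caspases (13 genes, -0.085), PI3K, FOXO3 and mTOR (18 genes, -0.133) and semaphorins with their receptors (4 genes, 0.0927).

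Whether the fertility difference of small follicles differed from that of later stages was tested over all 29 samples in 1 fit of 6 group means. HMO and LMO are the oocytes of medium follicles and HLO and LLO those of large follicles of the same groups, with 5 samples each. Against medium follicles 1 of 9692 genes had a different fertility contrast at an adjusted p under 0.05, with 678 at an unadjusted p under 0.05. Against large follicles it was 0 genes by limma, with 286 at an unadjusted p under 0.05 and a smallest adjusted p of 0.945. The 1 gene was LOC102182207 (ENSCHIG00000009925), described as a spermatid nuclear transition protein, whose symbol is carried by 8 genes and whose level is therefore uncertain. It was at 0 to 1.599 FPKM in HSO and 0.127 to 14.2 FPKM in LSO, and at 3.196 to 51.4 FPKM in HMO and 0 to 0.865 FPKM in LMO. Its highest samples were LSO-1, 3 and 4, HMO-1, 3, 4 and 5 and LLO-4, each also high in HSD17B2. They were at 5.92 to 14.2, 9.10 to 51.4 and 9.60 FPKM. The cause was not tested. The difference of the contrasts was -5.33 on the log2 scale (adjusted p = 0.0435), and the adjusted p was no longer under 0.05 without HSO-1, 3 or 5 or LSO-1, 3 or 4, where the count was 0; it was 45 genes without LSO-2 and 47 without LSO-5.

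For LOC102170446, MGP and SPTSSA the difference between stages did not pass after adjustment. These genes were picked by their contrast in small follicles, which is part of this difference. The picking favours a large difference and a small unadjusted p. LOC102170446 had a mean of 0.391 FPKM in HMO and 0.451 FPKM in LMO, and of 0.736 FPKM in HLO and 1.06 FPKM in LLO. Its fertility contrast was 2.24 larger in small than in medium follicles (unadjusted p = 0.000497, adjusted p = 0.146) and 2.15 larger than in large follicles (unadjusted p = 0.000762, adjusted p = 0.945). In low fertility goats the gene was not always near 0: 1 LLO sample was at 5.04 FPKM and 1 LMO sample at 2.02 FPKM. MGP was at a mean of 15.9 FPKM in HMO and 17.8 FPKM in LMO, and its contrast differed between small and medium follicles by 1.97 (unadjusted p = 0.0156, adjusted p = 0.496). SPTSSA had a mean of 1.15 FPKM in HMO and 1.16 FPKM in LMO and was listed at 0 in some samples of each of these groups. Its contrast differed by -1.53 (unadjusted p = 0.00889, adjusted p = 0.386).

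**Figure D5:**
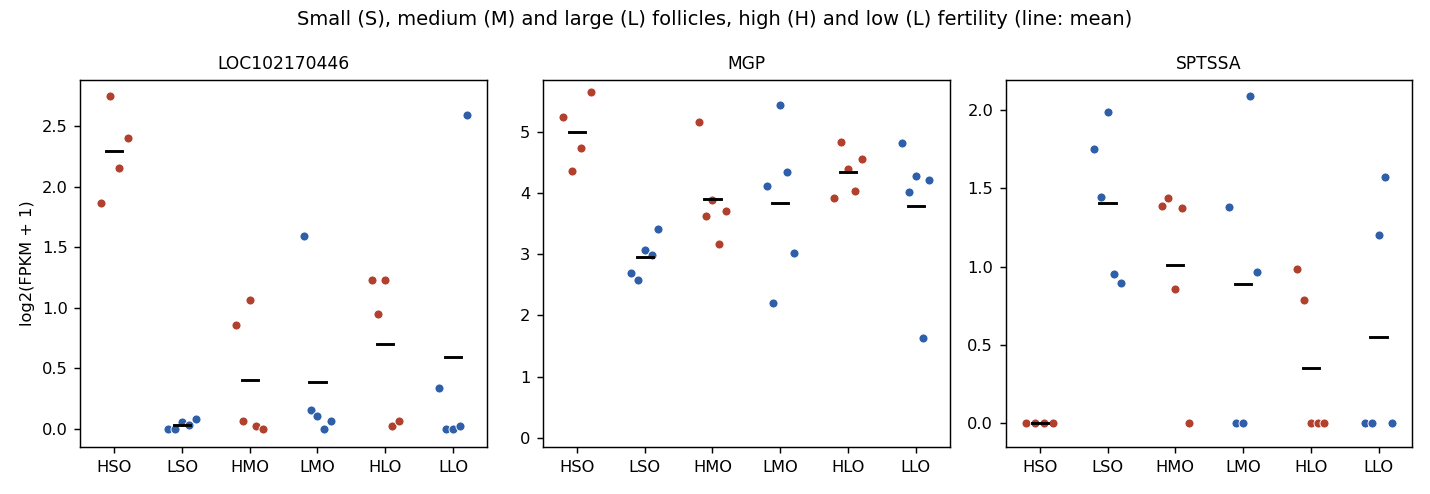
Log2(FPKM + 1) of LOC102170446, MGP and SPTSSA in all 29 samples by group, with small follicles at the left of each panel (4 HSO and 5 LSO), then medium and large follicles (5 samples per group); red is high and blue low fertility and the black line is the mean. HSO and LSO are apart in each panel, while the groups of medium and of large follicles overlap. The genes were picked for their difference in small follicles.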

How the data were processed

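The authors removed duplicates with picard, kept unique matches to the goat genome and obtained FPKM per gene with Cufflinks and the Ensembl annotation. The deposited table holds FPKM values. The aligner and genome build are not given in the sources used here, and the table holds no read counts. The study's supplement lists reads per sample, which were not used here. The table's other column of values, 1 in number, is headed as a further HSO replicate, matched no sample in use and was not analysed here. No 2 samples held identical values. Values were compared as log2(FPKM + 1) with limma (moderated statistics, mean-variance trend) over 4 HSO and 5 LSO samples, with Benjamini-Hochberg adjustment over 8376 genes. Stage differences were contrasts of 6 group means. Named genes are those with an adjusted p under 0.05, up to 12 per direction with the largest fold change among called, non-overlapping genes with a symbol other than a LOC number, called members of the gene lists, cell type markers and HSD17B2. A gene that met this rule is not reported here. RPL, RPS and other symbols carried by several genes are uncertain. The members and lists were chosen with earlier results of these data known. The RefSeq table of assembly ARS1.2 served for gene order. Genes outside these rules (neighbours, TRIM6, SPTLC2, HK2, the members of 0-count lists and LOC102182207) were named after their values were seen. Alternatives were other pseudocounts, filters, scalings and tests, a replicate block and leaving out each sample. The procedure was tested on simulated data. R 4.3.3 with limma 3.58.1 and, for figures, Python 3.11.15 with matplotlib 3.10.9 were used.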

Additional observations from a re-analysis of the deposited data

Results flagged for a closer look

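Within groups, 6 of 72 sets of values (the named genes, the FPKM sums, the genes above 0.5 FPKM and the mitochondrially encoded sums, each in HSO and in LSO) had 1 sample whose gap to the next was larger than Dixon's critical value allows. For normally distributed values chance gives this in about 1 in 20 sets. The values here were FPKM without the log scale, mostly of genes picked from these same samples, so that rate need not hold. LSO-1 was the outlying sample for USP28 with 32.9 FPKM against 6.36 to 10.49 FPKM, for MPP5 with 38.6 FPKM against 13.6 to 18.1 FPKM and for LHX1 with 7.94 FPKM against 0.969 to 2.93 FPKM. LSO-5 was outlying for USP13 with 20.9 FPKM against 0.428 to 6.35 FPKM. HSO-1 was outlying for HIST1H2BK with 20.1 FPKM against 9.29 to 10.8 FPKM, and HSO-5 for NDUFA3 with 1.11 FPKM against 0 in the other 3 HSO samples. With the others all at 0, any value above 0 would be flagged for NDUFA3.

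The fertility difference of LOC102182207 (ENSCHIG00000009925), a symbol carried by 8 genes, differed between small and medium follicles by -5.33 on the log2 scale (limma, adjusted p = 0.0435). It was higher in LSO than in HSO with a log2 fold change of -1.91 and higher in HMO than in LMO. Its highest samples were those high in HSD17B2.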

How the results depend on the processing

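With the replicate block, 139 genes were higher in HSO, 182 in LSO and 0 passed after adjustment, and the small to medium difference was called in 131 genes. The replicate numbers were not taken to pair the samples: the deviations of HSO and LSO samples with the same number correlated at 0.00014, 0.738, -0.51 and 0.601 for replicates 1, 3, 4 and 5, and of the HSO samples only HSO-3 correlated best with its own number. A pseudocount of 0.1 gave 136 genes toward HSO, 157 toward LSO, 2 after adjustment and 0 for the small to medium difference. Array weights gave 116 toward HSO and 327 for that difference. The exact Wilcoxon test gave 39, 15 and 0, where limma had 77, 65 and 1, and 345 genes at p under 0.05. The fit of 6 group means gave 0 after adjustment. Leaving out 1 sample gave 31 to 207 genes toward HSO, 17 to 150 toward LSO, 0 to 2 after adjustment and 0 to 47 for the small to medium difference. The same with the genes tested held fixed, chosen after seeing the data, gave toward HSO 39 without HSO-1, 208 without HSO-3, 31 without LSO-1 and 194 without LSO-5, toward LSO 30 without HSO-1, 20 without LSO-1, 151 without LSO-2, 43 without LSO-3 and 153 without LSO-5, and 2 after adjustment without LSO-3. The cause was not tested.

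No value of a named gene changed sign in 880 comparisons, and 185 lost p under 0.05. The genes compared were called in these same samples, which makes a change of sign unlikely from the start. Its absence is therefore no separate test. Leaving out each sample entered these comparisons with both gene selections, so many of them are near repeats. Of 868 list medians 7 moved by more than the spread between samples: cAMP and meiotic arrest to -0.0973 in the fit of 6 group means and -0.0971 without HSO-5, in both gene selections, the Notch pathway to -0.0763 without LSO-1, -0.0843 without LSO-4 and -0.0475 without HSO-5, and semaphorins to 0.213 without HSO-1. Few samples per group and pooled oocytes of unrecorded goats limit all of these values.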
